A study of Phalaenopsis aphrodite with 54 samples.

Results

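The pedicel of the *Phalaenopsis* flower was compared with its sepal across all contigs of a custom oligonucleotide array. The pedicel samples comprised the flower stalk together with the carpel and ovary, and the sepals are the outer tepals. Members of the comparison were chosen by the tissue given for each sample among the arrays of floral organs. They were 2 arrays of pedicel and 2 arrays of sepal, so 4 of the 54 arrays of the series.

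All 4 samples came from mature flowers of the tetraploid hybrid V3 (Sogo Yukidian 'V3'), a cultivar of moth orchid, and all RNA was amplified before labelling with Cy3. The probes were designed on transcript contigs of *P. aphrodite*, so every level in V3 was read with probes of another genotype. According to the methods, floral organs were collected on 2 occasions. The study asked which genes are switched on in which organ of the orchid flower.

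Organ identity in flowers is set by MADS box transcription factors, which act together in classes named A to E. In *Arabidopsis*, class A and B genes act in the perianth and class B and C genes in stamens. Class C and D genes act in carpels and ovules, and class E genes in all whorls. KNOX homeobox factors are known for keeping cells of the shoot meristem undifferentiated and for their expression in stems. The orchid ovary lies below the perianth at the end of the pedicel, and in moth orchids ovules develop only after pollination.

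The 75th percentile of the spot intensities was 5625 and 5383 on the pedicel arrays and 5847 and 5445 on the sepal arrays. The scanner software marks a spot as well above background by its own test, and it did so for 78.6% to 78.7% of spots in pedicel and 75.2% to 75.8% in sepal. No spot was saturated. Pedicel replicate 1 and sepal replicate 2 shared a slide and a scan batch, and the other 2 arrays lay on slides and in scan batches of their own. Levels are given below as quantile normalized log2 intensities, with a floor of 20 that equals 4.32 on this scale.

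Replicate arrays lay close together. Over the 29774 contigs tested that were well above background on all 4 arrays, the median absolute difference was 0.04 (log2) between the pedicel arrays, 0.10 between the sepal arrays and 0.39 between the organs. Spots at the same position on the 2 pedicel arrays differed by less than the 2 spots of a probe on 1 array, with a ratio of 0.727, and these arrays were averaged and counted as 1 replicate. Against the spot at the other position the ratio was 1.08. The sepal arrays, with ratios of 1.496 and 1.71, were kept as 2 replicates. In the fit of the 41 amplified arrays, 6 of 20 conditions kept their arrays apart, and the 6 residual degrees of freedom come from these, sepal among them and pedicel not, and nothing states whether the samples came from separate plants.

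A contig was called when limma gave it an adjusted p under 0.05 and the organs differed more than 4-fold. By this rule 1407 contigs were higher and 898 contigs were lower in pedicel than in sepal. These were 4.34% and 2.77% of the contigs tested. More than 16-fold differences were found for 326 higher and 178 lower contigs, and more than 64-fold differences for 76 and 28. The median difference over all contigs tested was -0.03 on the log2 scale.

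The contigs higher in pedicel had a median level of 10.21 (log2) in pedicel and 6.60 in sepal. Those lower in pedicel had a median level of 7.43 in pedicel and 10.65 in sepal. By the probe used for each contig, 288 of the higher contigs were not well above background on either sepal array, and among the lower contigs 61 were not well above background on either pedicel array. Differences of such contigs have only a lower bound, written below as at least N-fold. It was taken against the higher of the probe's own level and the lowest level well above background on each dim array, which was the floor here. Within the scan batch and slide that held an array of each organ, 1391 contigs were over 4-fold higher and 901 over 4-fold lower in pedicel, with no test. As these are bulk tissues, more cells of a type and more RNA per cell cannot be told apart.

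A second probe was measured for 830 of the higher contigs, and it was higher in pedicel for 827 of them. For the lower contigs, the second probe was lower in 534 of 538. None of these second probes passed the test in the opposite direction. The 2 arrays of pedicel and the 2 arrays of sepal did not overlap for 84.7% of all contigs tested, so a lack of overlap by itself was common.

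**Figure D1:**
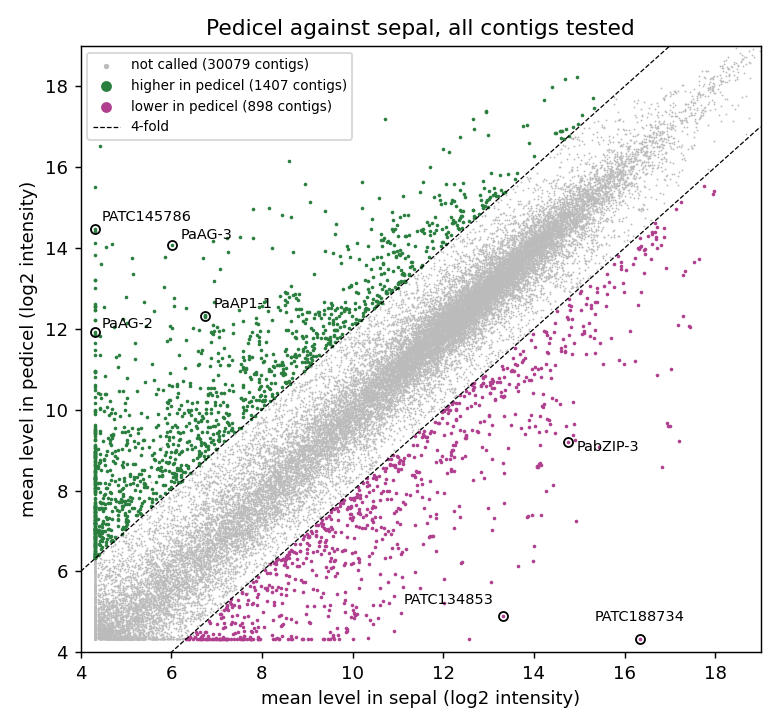
Mean level in pedicel (vertical axis) against mean level in sepal (horizontal axis), both as log2 intensity, for the 32384 contigs tested, 1 point per contig. Green points are the 1407 contigs higher and purple points the 898 contigs lower in pedicel, dashed lines mark 4-fold, circles mark named contigs, and the column of points at 4.32 holds contigs at the floor in sepal.

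Class C and D MADS box genes, which in *Arabidopsis* act in stamens, carpels and ovules, were higher in pedicel than in sepal throughout. All 6 contigs listed were tested and all 6 passed in this direction, beside a background of 4.34% for all contigs tested. Their median difference was 6.90 on the log2 scale, while that of all contigs was -0.03. The study assigned several of them to organs on these same samples, so these counts are no independent evidence of direction.

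PaAG-3, of the AG clade, was measured at 14.06 and 14.11 (log2) in pedicel and at 6.10 and 5.93 in sepal. Both pedicel arrays were thus far above both sepal arrays. The difference of the means was 8.07 ± 0.14 (log2, SE), or 268-fold, with an adjusted p of 1.0e-08 (limma). PaAG-2, a further AG clade gene, had levels of 11.88 and 11.96 in pedicel and lay at the floor on both sepal arrays. It was not well above background in sepal, and so was at least 194-fold higher in pedicel (adjusted p = 3.1e-08, limma).

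PaAG-4 belongs to the STK clade, whose *Arabidopsis* member acts in ovules. It was measured at 11.29 and 11.31 in pedicel and at 5.23 and 4.32 in sepal, where only 1 of the 2 arrays was well above background. Its levels did not overlap, and the difference was 6.52 ± 0.30 (log2, SE; adjusted p = 1.1e-06, limma). Of the 6 floral organs, petal and lip were at the floor for PaAG-4. The column lay between 4.32 and 4.72, and the pollinia between 7.97 and 8.77, so pedicel was the highest of the organs.

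PaAG-1 was measured at 10.703 and 10.797 in pedicel and at 7.87 and 7.64 in sepal, a difference of 3.00 ± 0.15 (log2, SE; adjusted p = 1.8e-06, limma). The short AG-like contigs PATC119249 and PATC209388 differed by 7.27 ± 0.24 and 3.14 ± 0.13 in the same direction. Against column, pedicel was lower for PaAG-1 (-1.92), PATC119249 (-3.61), PATC209388 (-1.93), PaAG-2 (-4.41) and PaAG-3 (-3.24), and higher for PaAG-4 (6.78, log2). In V3 flowers 15 days after pollination against V3 flowers, PATC119249 differed by 0.46 and PaAG-3 by 0.52. PATC209388 differed by 3.06 there and PaAG-1 by 2.94. Whether each pair reads separate transcripts was not tested, so the 6 contigs may not be 6 separate readings. Sepal levels of PaAG-1, PaAG-3, PATC119249 and PATC209388 were well above background on both arrays, so a signal of 4 of the 6 contigs was also measured in the outer tepal.

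Class A genes were split between the AP1 and AGL6 clades. In *Arabidopsis*, AP1 acts in the floral meristem and in the outer whorls. Of the 4 contigs listed, 2 were higher in pedicel and 0 were lower, beside 4.34% and 2.77% of all contigs tested, with a median difference of 2.93 (log2) over the 4. One of these calls, PaAP1-1, rests on 1 of its probes, as given below. PaAP1-2 was measured at 12.85 and 12.90 in pedicel and at 8.77 and 8.70 in sepal. All pedicel values were above all sepal values, and the difference was 4.14 ± 0.18 (log2, SE), or 17.6-fold (adjusted p = 7.7e-07, limma). Its second probe gave a difference of 4.36.

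PaAP1-1 passed the test with its brighter probe only. That probe was measured at 12.32 on both pedicel arrays and at 6.71 and 6.76 on the sepal arrays, a difference of 5.58 ± 0.09 (log2, SE; adjusted p = 8.7e-09, limma). The other probe of PaAP1-1 gave 7.11 and 7.09 in pedicel and 7.93 and 7.84 in sepal, a difference of -0.79 that did not pass (adjusted p = 0.0998, limma). The probes of this contig therefore disagreed in direction, and the array alone does not show which of them reads the PaAP1-1 transcript. Among 49 named contigs with a second probe, this was the only one whose probes differed in sign.

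The AGL6 genes, which in grasses act in floral organ and meristem identity, showed smaller differences. PaAGL6-2 had levels of 16.45 and 16.50 in pedicel and 14.79 and 14.70 in sepal. The difference of 1.73 ± 0.09 (log2, SE; adjusted p = 2.0e-06, limma) stayed under 4-fold, and pedicel had the highest mean of PaAGL6-2 in the 20 conditions. PaAGL6-1 was measured at 12.28 and 12.27 in pedicel and at 12.23 and 12.19 in sepal. Pedicel and sepal of PaAGL6-1 were thus nearly equal, with a difference of 0.06 ± 0.10 (log2, SE) and an adjusted p of 0.668 (limma). In the lip it was between 16.10 and 16.13, while both petal arrays were at the floor.

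Class B genes, which act in petals and stamens of *Arabidopsis*, did not move together. Of the 5 contigs listed 4 were tested, 1 was higher in pedicel and 0 were lower, beside 4.34% and 2.77% of all contigs tested. PaAP3-3 was higher in pedicel, with 10.57 and 10.59 against 6.58 and 6.23 in sepal. Its levels did not overlap, and the difference was 4.17 ± 0.18 (log2, SE; adjusted p = 8.3e-07, limma), or 18.0-fold. The level of PaAP3-3 in pedicel was nevertheless below that of lip, with 14.16 to 14.26, and column, with 13.73 to 13.91.

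PaAP3-2 was measured at 11.59 and 11.63 in pedicel and at 12.65 and 12.48 in sepal. This difference of -0.96 ± 0.16 (log2, SE; adjusted p = 0.0016, limma) was under 4-fold. PaPI-1, the only contig of the PI clade, lay between 15.98 and 16.19 on all 4 arrays, and its difference of -0.17 did not pass the test (adjusted p = 0.157, limma). PaAP3-4 was not well above background in pedicel and was measured at 5.07 and 4.50 in sepal. It was at least 1.38-fold lower in pedicel, which did not pass the test (adjusted p = 0.111, limma). Both organs were at or near the floor for PaAP3-4, while petal was between 14.73 and 14.89 and lip between 15.37 and 15.42. PaAP3-1 had no probe among those used here.

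Class E genes, which act in all whorls as partners of the other classes, were abundant in both organs. None of the 3 passed the 4-fold threshold, which 4.34% of all contigs passed as higher and 2.77% as lower, so a count of 0 among 3 is no result about these genes. The difference was 0.51 ± 0.14 (log2, SE; adjusted p = 0.0187, limma) for PaSEP-1 and -0.38 ± 0.08 (adjusted p = 0.0079) for PaSEP-2. PaSEP-3 differed by 0.13 ± 0.17 (adjusted p = 0.59). The 3 genes had levels between 14.21 and 15.80 on the 4 arrays. By the differences given above, the pedicel and sepal means of each gene lay within 2-fold of each other.

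Among other MADS box contigs, PaSOC1-3, of a clade that promotes flowering in *Arabidopsis*, was measured at 14.22 and 14.18 in pedicel and at 10.65 and 10.67 in sepal. Its pedicel values lay above its sepal values, with a difference of 3.54 ± 0.11 (log2, SE; adjusted p = 1.6e-07, limma). PATC198032 differed by -0.92 ± 0.14 and stayed under 4-fold. PaMδP-1, of the M-delta type, differed by -0.03, with overlapping arrays. PaMδS-1 was not well above background on any of the 4 arrays and was not tested. Over the 22 MADS box contigs listed, 20 were tested, 10 were higher in pedicel and 0 were lower. At the same thresholds, 4.34% of all contigs were higher and 2.77% lower. The study described many of these contigs, the AP1 contigs among them, by their patterns over these same organs. The count is therefore no independent evidence of direction.

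Both KNOX contigs were high in pedicel and at or near the floor in sepal. The study picked them on its own arrays as specific to flower, inflorescence or both, so they were not chosen independently of these data. PATC145786 was measured at 14.42 and 14.53 (log2) in pedicel and lay at the floor on both sepal arrays. It was at least 1140-fold higher in pedicel by its brighter probe (adjusted p = 1.4e-09, limma). Its second probe was measured at 13.69 and 13.72 in pedicel and at 4.32 and 4.97 in sepal, where it was well above background on 1 array, a difference of 9.05 (log2). PATC127065 was measured at 12.48 and 12.45 in pedicel and at the floor on both sepal arrays, and was at least 282-fold higher (adjusted p = 6.3e-07, limma).

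The remaining conditions set these values in context. The mean of PATC145786 in pedicel, 14.48, was the highest of the 20 conditions, followed by stalks of *P. aphrodite* with 13.57 to 13.61 and young inflorescences with 13.55 to 13.57. These ranges meet, so stalks and young inflorescences were not separate in this order. PATC127065 ranked 8th in pedicel, and its highest level was in young inflorescences at 14.73 to 14.78. In petals and column it was at the floor, as in leaves and roots of *P. aphrodite*.

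**Figure D2:**
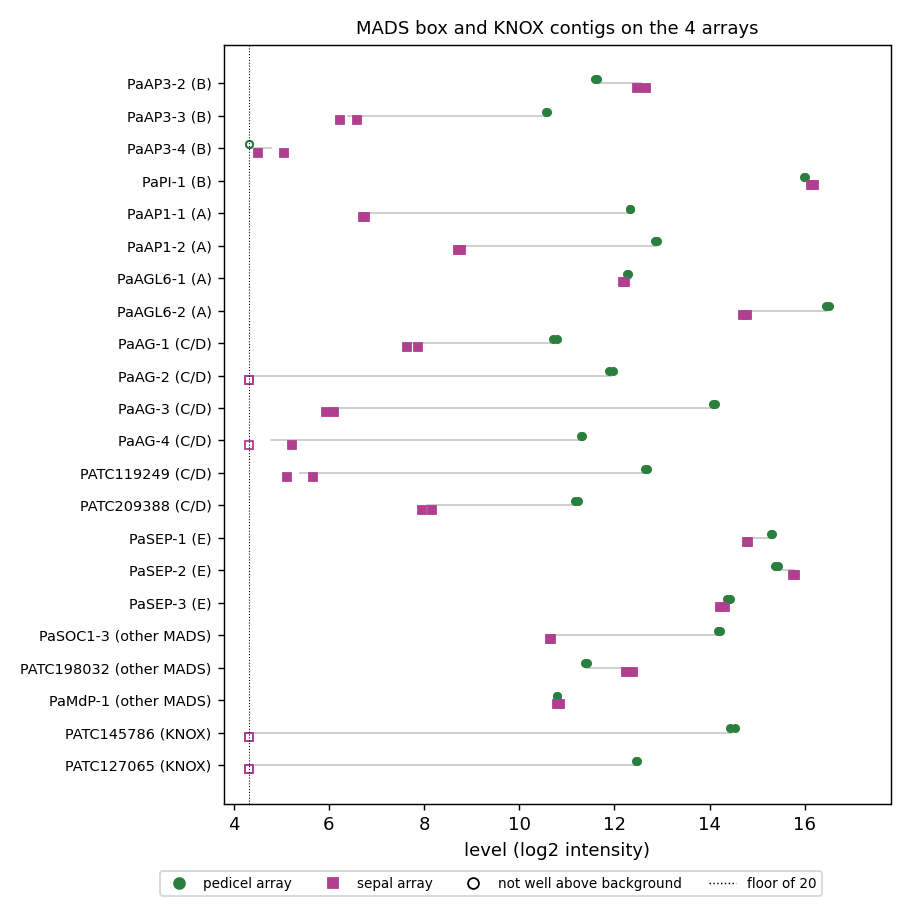
Level (log2 intensity, horizontal axis) of the 20 MADS box contigs and 2 KNOX contigs tested, with 1 circle per pedicel array and 1 square per sepal array. Class letters stand in parentheses, open symbols are not well above background, the dotted line is the floor, and the grey lines join the organ means. The 6 C/D contigs and both KNOX contigs lie far higher in pedicel, and the 3 class E contigs lie within 2-fold.

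Contigs taken as markers of organs, from those the study names, were set beside these results. The 2 column markers, PaAG-2 and PaAG-3, summed to a normalized intensity between 20836 and 21678 in pedicel, between 81.2 and 88.6 in sepal and between 240231 and 253673 in column. Both markers were thus higher in pedicel than in sepal and lower there than in column, the organ that joins the pedicel. The study names both genes for the pedicel too, so neither marks the column alone. The part of column tissue in the class C and D result was not tested. PaAG-4, the ovary marker, was at the floor or just above it in column, so its high level in pedicel was not matched there.

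Of the 6 pollinia markers, 4 were well above background in pedicel and 4 in sepal, and their sum was 5443 to 5482 in pedicel, 3832 to 3943 in sepal and 499974 to 503654 in pollinia. The other 2 markers of the list, PaMδS-1 and PaAP2-7, were not well above background on any of the 4 arrays. The lip marker PaAGL6-1 had nearly the same level in both organs, as given above. The 2 KNOX contigs, which the study names for flower or inflorescence, were taken as stalk and inflorescence markers, and their sum was 27632 to 29265 in pedicel and at the floor in sepal.

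Of the other transcription factors named by the study, 10 were tested, 1 was higher and 4 were lower in pedicel, beside 4.34% and 2.77% of all contigs. PaZF, a zinc finger factor, was measured at 11.72 and 11.70 in pedicel and at 8.04 and 7.85 in sepal. These values did not overlap, with a difference of 3.76 ± 0.17 (log2, SE; adjusted p = 9.0e-07, limma).

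PabZIP-3, a basic leucine zipper factor, had the largest difference among these 10. It was measured at 9.24 and 9.14 in pedicel and at 14.75 and 14.74 in sepal, a difference of -5.55 ± 0.11 (log2, SE; adjusted p = 1.8e-08, limma). The mean of PabZIP-3 in pedicel was the lowest of the 20 conditions. PaNAC-3, of the NAC family, had levels of 11.45 and 11.40 in pedicel and 14.70 and 14.68 in sepal, and differed by -3.26 ± 0.32 (adjusted p = 9.0e-05).

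PaAP2-5, a member of the AP2 family, which in *Arabidopsis* includes a class A gene of the perianth, was measured at 12.48 and 12.44 in pedicel and at 14.67 and 14.91 in sepal. Every sepal value was above every pedicel value, and the difference was -2.33 ± 0.21 (log2, SE; adjusted p = 5.7e-05, limma). Sepal ranked second and pedicel 12th among the 20 conditions for PaAP2-5, and petal ranked first at 15.15. The zinc finger contig PATC149247 differed by -2.90 ± 0.28 in the same direction.

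The bHLH and MYB factors stayed under 4-fold. PabHLH-1 differed by -0.92 ± 0.08 (adjusted p = 5.3e-05, limma) and PabHLH-3 by 1.49 ± 0.10 (adjusted p = 7.5e-06). PaMYB-2 differed by -0.52, and neither PaMYB-4 nor PabZIP-2 passed the test at any fold, with -0.13 and 0.11. PaAP2-7 was not well above background in either organ.

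Of the enzymes and other proteins named by the study, 7 were tested, 0 were higher and 3 were lower in pedicel, beside 4.34% and 2.77% of all contigs tested. The acyltransferase contig PATC134853 was measured at 4.94 and 4.84 in pedicel and at 13.26 and 13.40 in sepal. With a difference of -8.44 ± 0.16 (log2, SE), or 347-fold (adjusted p = 1.7e-08, limma), it had the largest difference in this direction among contigs well above background on all 4 arrays. A second acyltransferase contig, PATC196836, differed by 0.45 ± 0.12 and stayed under 4-fold, so members of this enzyme group did not move together.

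PATC156804 encodes phenylalanine ammonia-lyase, the entry enzyme of phenylpropanoid and flavonoid synthesis. It was measured at 11.44 and 11.47 in pedicel and at 14.59 and 14.80 in sepal. The organs did not overlap, the difference was -3.24 ± 0.11 (log2, SE; adjusted p = 1.8e-07, limma), and pedicel was the lowest of the 20 conditions. The proline-rich protein contig PATC147735 differed by -2.73 ± 0.18 (adjusted p = 7.4e-06).

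The tyrosine decarboxylase contigs PATC138942 and PATC149447, whose enzyme makes tyramine, differed by 1.46 ± 0.18 and 1.36 ± 0.11 (log2, SE), both under 4-fold. The receptor kinase contig PATC139333 differed by 1.61 ± 0.32. The reference genes did not pass the test at any fold. Actin differed by -0.18 (adjusted p = 0.364, limma) and ubiquitin by 0.33 (adjusted p = 0.25), and PaMTN3 was not well above background on any of the 4 arrays.

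**Figure D3:**
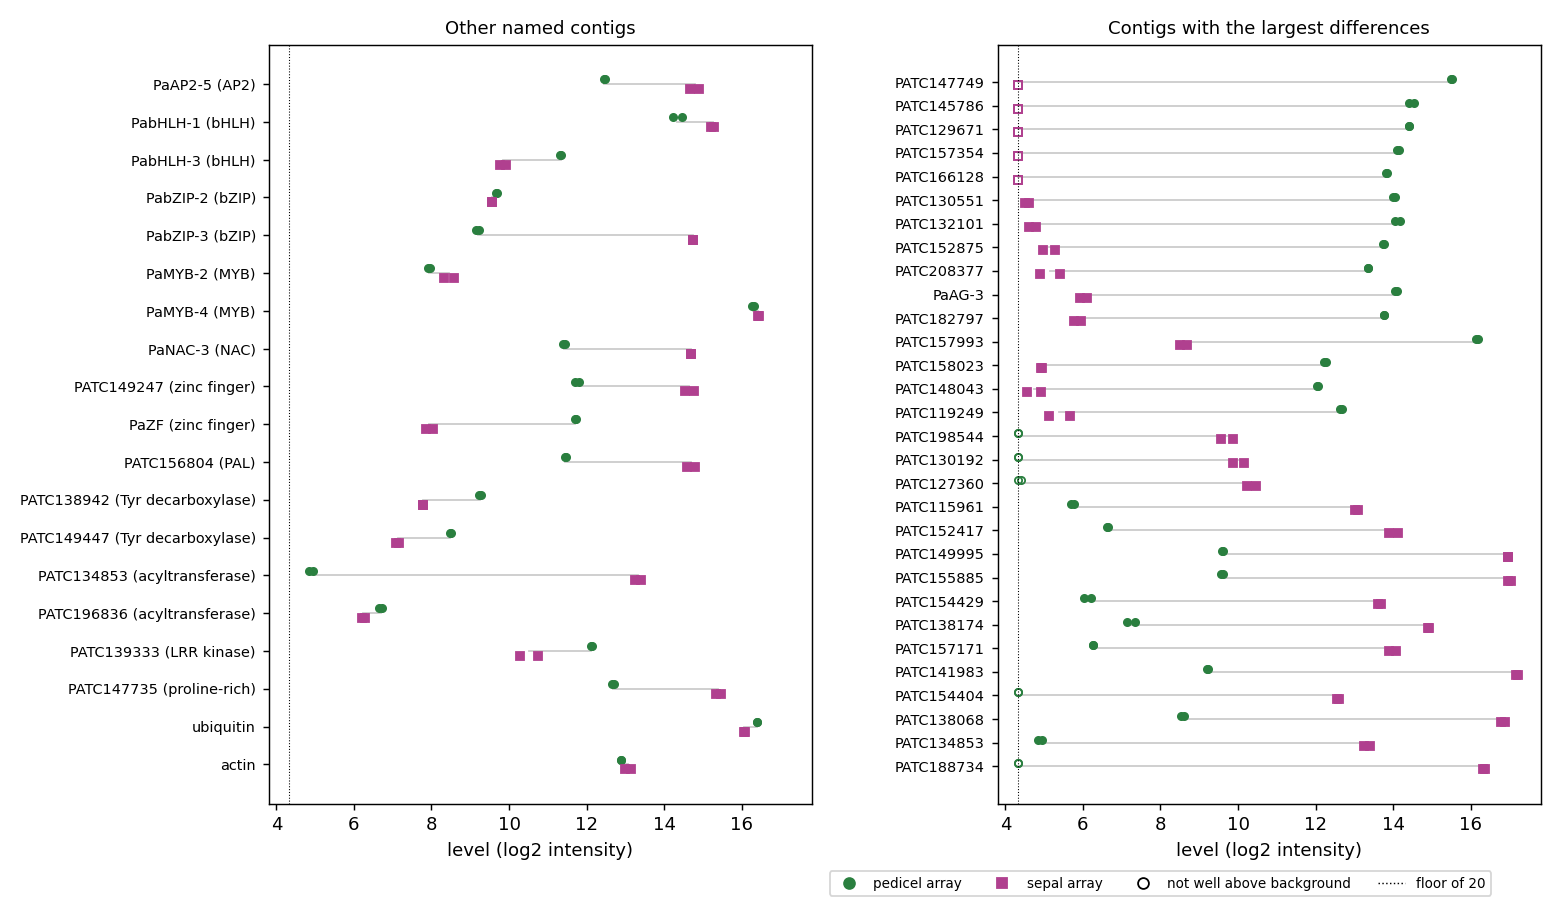
Level (log2 intensity, horizontal axis) on the 4 arrays of the other contigs named by the study (left) and of the contigs with the largest differences (right), with 1 circle per pedicel array and 1 square per sepal array. Open symbols are not well above background, the dotted line is the floor, and the organs lie far apart for all the contigs at right.

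Many of the largest differences belonged to contigs that carry no gene name in the tables used here, beside the named KNOX, AG and acyltransferase contigs. Values of the first few are given as a description of the extremes. PATC130551 was measured at 14.05 and 14.00 (log2) in pedicel and at 4.62 and 4.52 in sepal. Its difference of 9.46 ± 0.21 (adjusted p = 3.3e-08, limma) was the largest among contigs well above background on all 4 arrays. PATC132101 followed with 9.40 ± 0.20 and PATC152875 with 8.62 ± 0.14.

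The 10 contigs that led in this direction differed by 7.27 to 9.46 on the log2 scale, and the class C/D contigs PaAG-3 and PATC119249 were among them. Of the contigs whose brighter probe was read only in pedicel, PATC147749 had the highest level, with 15.49 and 15.51. It was at the floor on both sepal arrays and at least 2320-fold higher in pedicel with its brighter probe, while its second probe was measured at 9.65 on both pedicel arrays, a difference of 5.33. PATC129671, PATC157354 and PATC166128 were at least 1088, 893 and 731-fold higher in pedicel. In PATC147749, PATC129671 and PATC166128, as in the KNOX contig PATC145786, pedicel was the highest of the 20 conditions. They were picked for their high pedicel levels, so this rank follows in part from the choice.

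On the sepal side, PATC138068 was measured at 8.61 and 8.53 in pedicel and at 16.79 and 16.88 in sepal. The organs lay apart by -8.26 ± 0.15 (log2, SE; adjusted p = 1.3e-08, limma). The 10 contigs that led in this direction differed by -7.32 to -8.44. PATC188734 was at the floor on both pedicel arrays and at 16.36 and 16.31 in sepal, and was at least 4127-fold lower in pedicel.

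PATC154404, also at the floor in pedicel, was at least 306-fold lower there. PATC127360, with 10.23 and 10.46 in sepal, was at least 63.4-fold lower in pedicel with its brighter probe. The other probe of PATC127360 was well above background on all 4 arrays and gave 5.18 and 4.75 in pedicel and 6.06 and 6.44 in sepal, a difference of -1.28 that was under 4-fold.

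The called contigs were then followed in the other 18 conditions. Levels there took no part in choosing the contigs other than through the normalization, the choice of the brighter probe and the pooled spread. The ranking of the 6 floral organs, however, also held pedicel and sepal, whose levels did choose the contigs. By that choice sepal could not be highest for contigs higher in pedicel, nor pedicel for those lower. The counts for pedicel and sepal are therefore no independent result, and the shares of the remaining organs also depend on the choice. Of the 1407 contigs higher in pedicel than sepal, 826 had their highest level among the 6 floral organs in pedicel. Pollinia were highest for 409, column for 129, lip for 41 and petal for 2. Pollinia were thus highest for 29.1% of these contigs, and for 36.9% of all contigs tested. The shares of column, lip and petal were 9.17%, 2.91% and 0.142%, beside 19.4%, 9.97% and 13.4% of all contigs tested.

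Of the 898 contigs lower in pedicel, sepal was the highest organ for 356, petal for 182, pollinia for 163, lip for 143 and column for 54. These were 39.6%, 20.3%, 18.2%, 15.9% and 6.01%, and over all contigs tested the shares were 8.87%, 13.4%, 36.9%, 9.97% and 19.4%. The contigs were chosen as high in sepal, so its larger share follows in part from the choice. The same sepal levels enter the differences from sepal given next. The levels in petal were close to those in sepal, with a median petal minus sepal difference of -0.30 (log2) over these contigs. In column the median difference from sepal was -2.21 and in pollinia -3.27.

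The contigs higher in pedicel had a median level of 10.21 in pedicel, 10.37 in small V3 buds and 9.40 in large V3 buds. In *P. aphrodite* it was 10.34 in young inflorescences, 10.47 in inflorescences and 9.95 in stalks. Flower samples were much lower, with 7.99 in V3 and 7.69 in *P. aphrodite*. These are different genotypes and stages, and the medians are given as a description.

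**Figure D4:**
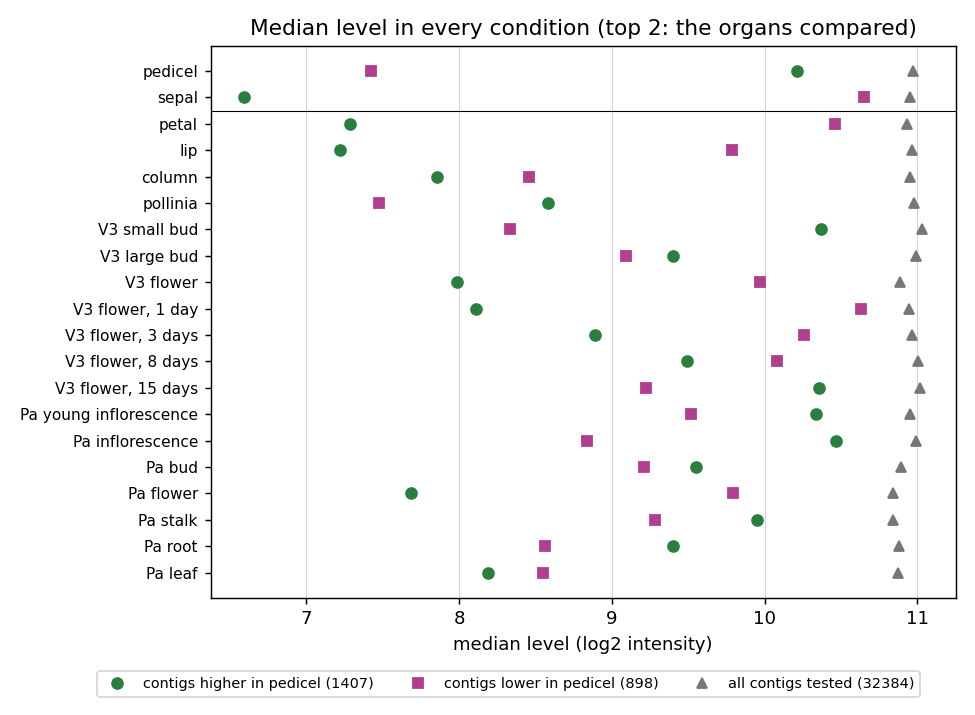
Median level (log2 intensity, horizontal axis) in each of the 20 conditions of the 1407 contigs higher in pedicel (circles), the 898 contigs lower in pedicel (squares) and all 32384 contigs tested (triangles). Pa stands for *P. aphrodite* and the days count from pollination. The circles lie near the pedicel median of 10.21 in small buds, inflorescences and flowers at 15 days, and the triangles stay near 11 throughout.

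Pollination starts growth of the orchid ovary and ends the life of the tepals. V3 flowers at 1, 3, 8 and 15 days after pollination were compared with V3 flowers, with 2 arrays of each condition. The tissue labels do not state whether these flower samples held the pedicel. In each of these conditions, as in stalks and flowers of *P. aphrodite*, the 2 arrays were counted as 1 replicate, so the p-values take their spread from other conditions only. The 4 comparisons share the same V3 flower arrays and are not independent of each other. At 15 days, 1379 of the 1407 contigs higher in pedicel passed the filter, and 720 of them were higher than in V3 flowers (limma, adjusted p under 0.05 and over 4-fold). This was 52.2%, beside 11.0% of all contigs tested, and the median difference was 2.10 (log2) beside -0.07 for all contigs. In the other direction 46 contigs, or 3.34%, were lower, beside 6.44% of all.

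Of the 898 contigs lower in pedicel, 877 passed the filter, and 248 were lower at 15 days. This was 28.3%, beside the background of 6.44%. A further 109, or 12.4%, were higher, close to the background of 11.0%. Scaling to the 75th percentile in place of quantile normalization moved the median of all contigs in this comparison from -0.07 to 0.18 and the share of higher among all calls from 63.1% to 77.8%. With the contigs of both sides called anew under that scaling, 934 of the pedicel side, or 61.85% of those tested, were higher at 15 days, beside 14.8% of all contigs. On the sepal side 202, or 26.4%, were lower, beside 4.23% of all.

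At the earlier days fewer contigs of the pedicel side were higher. At 1 day there were 169 of 1267, at 3 days 296 of 1323 and at 8 days 513 of 1384, which are 13.3%, 22.4% and 37.1%. The background of higher contigs on those days was 6.01%, 7.63% and 8.80%. On the sepal side the order was the opposite, with 221 of 872, 199 of 870 and 183 of 881 contigs higher, or 25.3%, 22.9% and 20.8%, and 12.4% at 15 days. The sepal side thus had the larger share at 1 day and nearly the same share at 3 days.

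Calls in the lower direction differed between the sides as well. On the sepal side, 117, 153 and 179 contigs, or 13.4%, 17.6% and 20.3%, were lower at 1, 3 and 8 days, beside backgrounds of 5.14%, 5.38% and 5.23%. On the pedicel side the counts were 139, 98 and 60, so the share of lower contigs was 11.0% at 1 day and 4.34% at 8 days.

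Some named genes can be followed in the same arrays. PaAG-4 was between 10.36 and 10.52 in V3 flowers and between 12.047 and 12.050 at 15 days, a difference of 1.61 ± 0.35 (log2, SE; adjusted p = 0.0039, limma) that was under 4-fold. PaAG-1 differed by 2.94 ± 0.17 and PATC209388 by 3.06 ± 0.15, both past 4-fold. PaAG-2 differed by -1.08 ± 0.19 and PaAG-3 by 0.52 ± 0.16, so the class C and D contigs that were all higher in pedicel did not all move one way after pollination.

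On the sepal side, PATC138068 was between 16.73 and 16.77 in V3 flowers and between 7.98 and 8.03 at 15 days. PATC188734 was at 15.40 in V3 flowers and between 4.48 and 4.58 at 15 days. At 1 day PATC138068 differed from V3 flowers by only -0.96 and PATC188734 by -1.02 (log2), and at 15 days both were low, as in pedicel. In contrast, PaNAC-3 and PabZIP-3, which were lower in pedicel than in sepal, were higher at 15 days by 4.40 ± 0.37 and 2.21 ± 0.12 (log2, SE; adjusted p = 1.9e-05 and 1.7e-06, limma), while PaAP2-5 differed by -3.76 ± 0.24.

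The V3 flower arrays lay in scan batch 5 and the flowers at 15 days in scan batch 4. Flowers at 1 day lay in batch 7, and those at 3 and 8 days in batches 3 and 4. Batch and condition therefore cannot be told apart on any of these days. On both V3 flower arrays 6 of the 8 virus probes were well above background, and on the 15-day arrays none was. The part of the virus signal in these counts was not tested. On the 4 pedicel and sepal arrays, 1 of 32 pairs of virus probe and array was well above background, and none was above the floor of 20.

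Stalks and flowers of *P. aphrodite* gave a comparison in another genotype. The stalk is the axis that carries the pedicels. Of the contigs higher in pedicel, 1355 passed the filter and 748, or 55.2%, were higher in stalk than in flower, beside 6.80% of all contigs tested. Only 9 were lower, or 0.664%, beside 3.40% of all. The median difference of these contigs was 2.19 (log2), beside -0.17 for all contigs.

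Of the contigs lower in pedicel, 855 passed the filter and 224, or 26.2%, were lower in stalk, beside the background of 3.40%. A further 89, or 10.4%, were higher, beside 6.80%. Stalks were scanned in batch 6 and flowers in batch 2, so batch and tissue cannot be told apart here.

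Both KNOX contigs and both AP1 contigs were higher in stalk. PaAP1-1 was read by its brighter probe, whose direction between pedicel and sepal its other probe did not share. PATC127065 differed by 5.17 ± 0.39, PATC145786 by 3.51 ± 0.12, PaAP1-1 by 6.80 ± 0.10 and PaAP1-2 by 3.11 ± 0.20 (log2, SE), all with adjusted p under 0.05 in limma. The class C and D contigs did not move one way. PaAG-4 was higher in stalk by 1.77 ± 0.35 (log2, SE; adjusted p = 0.0036, limma), which was under 4-fold. PaAG-2 and PaAG-3 differed by -1.93 ± 0.19 and -1.98 ± 0.15, PATC119249 differed by -2.16 ± 0.28, past 4-fold, and PaAG-1 and PATC209388 differed by 0.02 ± 0.17 and 0.13 ± 0.15. PaAP3-3, higher in pedicel than in sepal, was lower in stalk than in flower, with a difference of -4.37 ± 0.21 (adjusted p = 1.3e-06, limma).

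**Figure D5:**
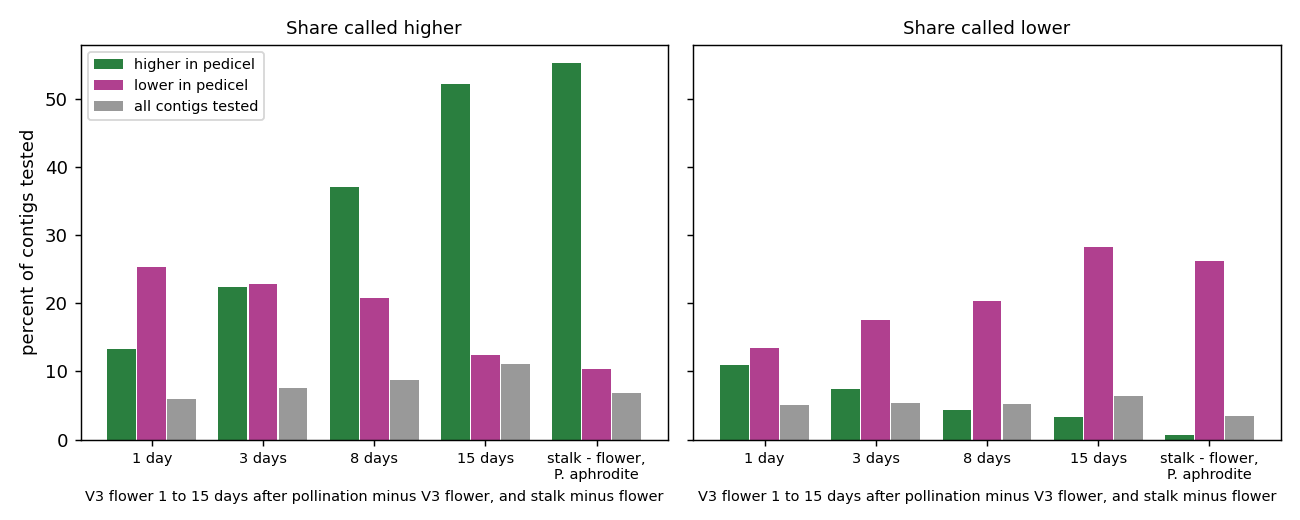
Share of contigs (percent of those tested, vertical axis from 0) called higher (left) or lower (right) in V3 flowers 1 to 15 days after pollination against V3 flowers, and in stalk against flower of *P. aphrodite*. Green bars are the contigs higher in pedicel, purple bars those lower in pedicel and grey bars all contigs tested. The green bars at left go from 13.3% at 1 day to 52.2% at 15 days, and the grey bars from 6.01% to 11.0%.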

How the data were processed

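Each sample was hybridised with 1 Cy3 label to a custom Agilent array of 67038 probes for 43662 contigs, with 2 spots per probe. The authors deposited spot intensities from Feature Extraction 10.7.1.1, which are corrected for background within each array, and a table of log2 values. The deposited log2 values equal the log2 of the floored intensity minus a constant per array, which lay near the 75th percentile. Quantile normalization, which the methods name, is therefore not in that table. Probe sequences and gene annotation of the contigs were not used here.

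Intensities below 20 were set to 20, and log2 values were quantile normalized across the 41 amplified arrays. Spots marked as outliers were left out, spots of a probe were averaged, and the probe with the higher mean over these arrays stood for a contig. Tests took in each contig whose probe had at least 0.5 of its spots well above background in all arrays of 1 of the conditions compared. Conditions were fitted in limma 3.58.1 (R 4.3.3) with 1 coefficient each and Benjamini-Hochberg adjustment over all contigs tested. Calls needed an adjusted p under 0.05 and over 4-fold. Arrays of a condition that differed by less than the spots of 1 array were averaged as 1 replicate, which held for 14 of 20 conditions. Where no array of an organ read a contig above background, its fold is a lower bound.

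Named are the contigs the study names, the 10 largest differences per direction among contigs well above background on all 4 arrays, and the 5 highest levels per direction among contigs whose probe was read in 1 organ only. Members and lists were chosen with earlier results of these data known. The test was tried on simulated data. The 13 unamplified arrays were not used. Precision is limited by the small number of arrays. Alternatives were other scalings, background correction, floors, filters, probe rules, replicate rules, batch terms, a 2-fold threshold and leaving out each array.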

Additional observations from a re-analysis of the deposited data

Results flagged for a closer look

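Virus probes, which no comparison of pedicel and sepal used, were read in conditions that served as comparisons. On both V3 flower arrays 6 of the 8 probes were well above background, with mean log2 intensities between 5.42 and 9.23. On both stalk arrays of *P. aphrodite* 1 probe was well above background, a CymMV probe at 6.63.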

How the results depend on the processing

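No paired analysis was possible because the labels give no replicate numbers. With every array a replicate, scan batch as a block gave 1392 contigs higher and 883 lower in pedicel, and slide as a random block 1413 and 889. The number of contigs higher in pedicel was 1407 and became 937 where a raw signal of at least 500 was needed, which left 22145 contigs to test, and 3189 at a 2-fold threshold. Normexp background correction gave 944 higher and 618 lower, and the 75th percentile 1540 and 782; the cause was not tested. The number lower was 898 and became 2834 at 2-fold. With a floor of 5, 1 MADS box contig was lower, PaAP3-4 at -2.12, in place of 0. With the contigs of both sides called anew at 2-fold, 1900 of the pedicel side were higher at 15 days and 1921 in stalk. These were 61.25% and 63.67% of those tested. On the sepal side 941 were lower at 15 days and 1073 in stalk, or 34.22% and 40.4%. The shares of all contigs at 2-fold in these comparisons were not computed. Called anew with the raw signal filter, 448 of the pedicel side were higher in stalk, or 56.57% of those tested, beside 55.2% without it. The share of all contigs under that filter was not computed either. Leaving out 1 array at a time gave 1379 to 1465 contigs higher and 896 to 992 lower in pedicel, 713 to 725 and 249 to 250 for the counts at 15 days, and 743 to 749 and 223 to 227 for the counts in stalk. Leaving out arrays of the flower and stalk conditions was chosen after seeing the data. PaAP1-1 turned to -0.79 with its other probe. PaMδP-1, at -0.03, became 0.0587 with the 75th percentile, 0.0585 with the deposited table and 0.0043 within the shared scan batch. PATC127360 fell under 4-fold with its other probe (-1.28) and with a floor of 5 (-1.36). Whether its other probe became the brighter one at that floor was not tested, so these values may not be separate readings. Among alternatives for named contigs past the threshold, 825 kept their direction and side of it, 2 lost it and 1 turned. The cause was not tested for PATC127360 and PaAP3-4. Signals near background limit the folds of contigs read in 1 organ only.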

Other observations

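In *P. aphrodite*, the contigs higher in pedicel than sepal of V3 had a median level of 9.40 (log2) in roots and 8.19 in leaves, beside 9.95 in stalks and 7.69 in flowers. Among these 4 tissues, stalk was highest for 550 of the 1407 contigs, root for 540, leaf for 237 and flower for 80. Over all contigs tested, stalk was highest for 15.5%, root for 26.3%, leaf for 30.2% and flower for 28.0%. Of the 898 contigs lower in pedicel, flower was highest for 384, or 42.8%.

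PATC188734, with 1 probe, had the highest level among contigs read in sepal and not in pedicel. It was at 17.53 to 17.56 in lip and 15.40 in flowers of V3, and at the floor on both flower arrays of *P. aphrodite*. The acyltransferase contig PATC134853, lowest in pedicel among the 20 conditions, was high in stalks of *P. aphrodite* at 13.68 to 13.73. The pedicels were of V3, so organ, genotype and scan batch cannot be told apart in this difference. PATC134853 was at 5.48 to 5.67 in small V3 buds and at 13.62 to 13.65 in V3 flowers 8 days after pollination.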
